A study of Mus musculus with 4 samples.

Results

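The genes described here encode the hyaluronan-based matrix of the central nervous system: the lecticans Vcan (versican), Bcan (brevican), Ncan (neurocan) and Acan (aggrecan), the tenascins Tnr and Tnc, the hyaluronan link proteins Hapln1, Hapln2 and Hapln4, and Cspg5, a transmembrane chondroitin sulfate proteoglycan also called neuroglycan C. These 10 genes were taken by symbol from 21249 gene symbols with a usable transcript of at least 300 bases. Transcript levels were measured by RNA sequencing in whole spinal cord of mice of a mixed strain background at postnatal day 8, in 2 control libraries (Chd7f/+; Olig1-cre) and 2 conditional knockout (cKO) libraries (Chd7f/f; Olig1-cre). Cre recombinase under Olig1, which marks oligodendrocyte lineage cells, is thus present in all 4 libraries, and the controls carry a floxed Chd7 allele beside an unfloxed one. Chd7 encodes a chromatin remodeler, and the series asks how it and Sox10 time myelination. Whether the duplicates of a group are separate animals is not stated, so p-values measure the spread between these libraries.

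Lecticans are proteoglycans that bind the polysaccharide hyaluronan at one end and tenascins at the other, and link proteins lock a lectican onto hyaluronan. The resulting mesh fills the space between cells, wraps some neurons as perineuronal nets and is concentrated around nodes of Ranvier, the gaps between myelin segments. Versican and tenascin-R are made in large part by cells of the oligodendrocyte lineage, Hapln2 (also called Bral1) is a link protein of nodes, brevican and neurocan come from glia and neurons, and tenascin-C is a matrix protein of immature glia.

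Chd7 measured 3.52 and 3.12 FPKM (fragments per kilobase, scaled to library size) in controls 1 and 2, against 2.52 and 3.38 in cKO 1 and cKO 2 (limma adjusted p = 0.657), and the labels do not give the floxed part. Relative depth ran from 1.0 in control 2 to 3.19 in cKO 2. All 5 Hox genes of spinal cord position were present, with summed levels of 63.2 to 88.5 FPKM. Markers of myelinating oligodendrocytes summed to 16168 and 18454 FPKM in the controls and to 6624 and 10364 FPKM in cKO 1 and cKO 2. Markers of meningeal fibroblasts summed to 277 FPKM in control 1, 61.2 in control 2, and 36.1 and 38.7 in the cKO libraries.

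Of the 10 genes, Vcan, Tnr and Hapln2 fell in cKO cords and none rose at an adjusted p under 0.05 in limma, fitted over all 12913 gene sums with a mean of at least 1 FPKM. A gene sum adds the FPKM of a symbol's transcripts, and fold changes are on the log2(FPKM + 1) scale. Over all genes tested, 6.54% were lower and 4.13% higher by the same rule. All 10 passed the filter on low values. At an unadjusted p under 0.05, 4 were lower (Tnc as well) and 1 was higher (Cspg5). The shares of all genes at that unadjusted threshold were not computed, and the shares above do not apply to it. The median log2 fold change of the 10 genes was -0.06, beside -0.00277 over all genes tested. In 5 genes both cKO libraries lay below both controls (Vcan, Acan, Tnr, Tnc, Hapln2), a pattern that 29.3% of all genes showed. In 2 genes both lay above (Hapln4, Cspg5), as 24.3% of all genes did. The members were chosen with results of these data known, so these counts are a description.

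**Figure D1:**
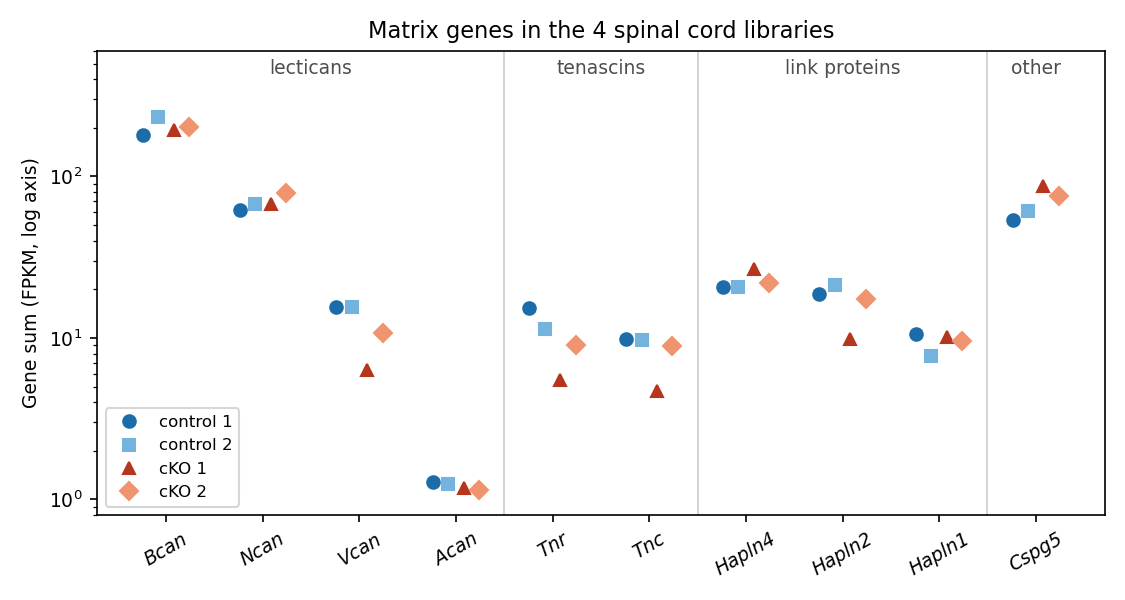
Gene sums in FPKM on a log axis for the 4 lecticans, 2 tenascins, 3 link proteins and Cspg5, with 1 point for each library (2 control, 2 cKO). Bcan is the highest in every library, at 181 to 234 FPKM, Acan is the lowest at 1.15 to 1.29 FPKM, and cKO 1 is the lowest library for Vcan, Tnr, Tnc and Hapln2.

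In the control cords the levels, which FPKM makes comparable between genes, ran from near the top to near the bottom of the genes tested. Bcan averaged 208 FPKM and lay above 98.3% of tested genes, followed by Ncan at 64.9 and Cspg5 at 57.3 FPKM. Hapln4 (20.8 FPKM), Hapln2 (20.0), Vcan (15.6), Tnr (13.3), Tnc (9.73) and Hapln1 (9.15) formed a middle group. Acan averaged 1.27 FPKM, above 3.15% of tested genes. The control libraries did not separate Hapln4 from Hapln2, or Tnc from Hapln1. With all 4 libraries, the steps from Bcan to the next gene, from Cspg5 to Hapln4 and from Hapln1 to Acan were larger than the spread.

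Versican was the lectican that fell. Vcan (chromosome 13, 89794915 to 89882117 on mm9) measured 15.6 and 15.5 FPKM in controls 1 and 2, against 6.37 and 10.8 FPKM in cKO 1 and cKO 2. The controls were nearly equal and both cKO libraries lay below them, with cKO 1 the lower. Means were 15.6 ± 0.0831 and 8.58 ± 3.13 FPKM (SD, n = 2 each). The log2 fold change was -0.83 ± 0.17 (SE, limma adjusted p = 0.000729), or 1.78-fold lower. Without cKO 1 the fold change was -0.49 and did not pass (adjusted p = 0.245), and without cKO 2 it was -1.17. Fibroblasts also make versican, and 7 of 8 meningeal fibroblast markers fell. Without control 1, which held the most of those markers, the fold change of Vcan was -0.83. Control 2 still held 61.2 FPKM of those markers, against 36.1 and 38.7 FPKM in the cKO libraries. Leaving out control 1 thus does not remove the difference in fibroblast markers. The part of fibroblast content in the value of Vcan was not tested.

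The aggregating forms of versican differ in 2 large exons that carry the chondroitin sulfate chains, called GAG-alpha and GAG-beta. Deposited row lengths differed by 5217 bases with and without GAG-beta and by 2880 bases with and without GAG-alpha, which told the 4 forms apart: V0 has both exons, V1 has GAG-beta, V2 has GAG-alpha and V3 has neither. V2, known as the form of the oligodendrocyte lineage, was at 9.64 and 6.67 FPKM in the controls, against 2.79 and 6.21 FPKM in cKO 1 and cKO 2. V3 was at 2.92 and 6.32 FPKM in the controls, against 2.44 and 2.53 FPKM in the cKO libraries. For both forms the cKO libraries lay below the controls, but neither passed as a transcript (limma adjusted p = 0.317 for V2 and 0.373 for V3). V1 overlapped, at 1.58 and 1.67 FPKM in control and 1.05 and 1.86 FPKM in cKO. V0 was at 1.25 and 0.664 FPKM in the controls, against 0.000782 and 0.000259 FPKM in cKO 1 and cKO 2. Its mean depth per base was 1.86 and 0.476 in the controls, and the forms share most of their reads, so its split from V1 is uncertain. V0 and V1 together held 18.1% and 15.0% of the Vcan sum in the controls and 16.5% and 17.2% in the cKO libraries, so the share of GAG-beta forms overlapped between the groups. The share of V2 also overlapped, at 61.6% and 42.9% against 43.8% and 57.6%. That of V3 overlapped as well, at 18.7% and 40.7% against 38.4% and 23.4%. The split between V2 and V3 thus differed between the controls and is uncertain too. Another Vcan row of 3745 bases held at most 1.78% of the sum.

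**Figure D2:**
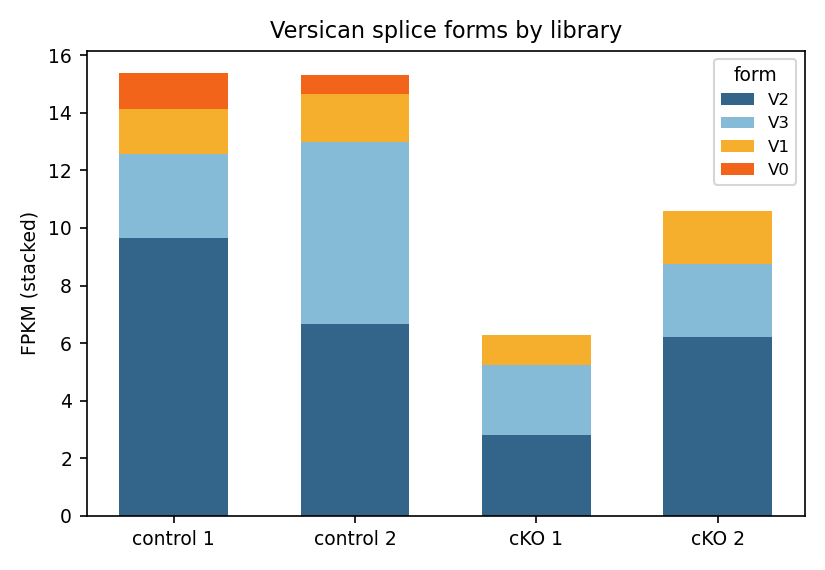
Stacked FPKM of the versican forms V0 to V3 in each of the 4 libraries, without the row of 3745 bases. V2 is the tallest block in each library, from 2.79 FPKM in cKO 1 to 9.64 FPKM in control 1, and V0 is visible in the controls alone.

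Brevican, neurocan and aggrecan did not pass the test. Bcan (chromosome 3, 87791453 to 87804278) was at 181 and 234 FPKM in the controls, against 193 and 202 FPKM in the cKO libraries, which lay between the controls. Its log2 fold change was -0.06 with a 95% interval from -0.49 to 0.37 (limma adjusted p = 0.898). Brevican has a secreted form and a shorter form known to be held on the membrane by a lipid anchor. The short row (2685 bases) measured 27.0, 31.1, 25.5 and 33.2 FPKM in controls 1 and 2 and cKO 1 and 2, and held 13.2% to 16.4% of the Bcan sum in the 4 libraries. Ncan (chromosome 8, 72616984 to 72644743) was at 62.2 and 67.7 FPKM in control and 67.5 and 78.7 FPKM in cKO, with a log2 fold change of 0.16 (95% interval -0.19 to 0.52, limma adjusted p = 0.621). Acan, the main lectican of perineuronal nets, was at 1.29 and 1.24 FPKM in control and 1.18 and 1.15 FPKM in cKO. Both cKO libraries lay below both controls by a small margin, and the log2 fold change of -0.07 did not pass (95% interval -0.38 to 0.25, limma adjusted p = 0.842). Acan rests on a mean depth of 0.89 to 2.63 reads per base.

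The share of versican in the lectican total did not overlap between the groups, while the total did. Summed over the 4 lecticans, control libraries held 260.3 and 319 FPKM and cKO libraries 268 and 292 FPKM. Versican made up 6.01% and 4.87% of that sum in the controls and 2.37% and 3.69% in cKO 1 and cKO 2. Brevican held 69.0% to 73.5% of it in the 4 libraries. The ratio of neurocan to versican was 3.98 and 4.36 in the controls and 10.6 and 7.29 in cKO 1 and cKO 2, so these ratios did not overlap. Neither the shares nor the ratios were tested. Both are built on the Vcan values given above, so they are not a separate result.

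Both tenascins had lower values in the cKO libraries, and Tnr passed the test. Tenascin-R, a matrix protein that binds lecticans and axonal adhesion molecules around nodes, is encoded by Tnr (chromosome 1, 161453900 to 161855053). It measured 15.2 and 11.3 FPKM in controls 1 and 2, against 5.48 and 9.10 FPKM in cKO 1 and cKO 2. Means of 13.3 ± 2.78 and 7.29 ± 2.56 FPKM (SD, n = 2 each) gave a log2 fold change of -0.81 ± 0.17 (SE, limma adjusted p = 0.00127), or 1.75-fold lower. The groups did not overlap, and control 2 and cKO 2 were the closest libraries across them. Without cKO 1 the fold change was -0.49 (adjusted p = 0.255), and under TPM and quantile scaling the adjusted p was 0.0608 and 0.0613. Tnc (chromosome 4, 63620819 to 63708049) was at 9.81 and 9.65 FPKM in the controls, at 4.68 FPKM in cKO 1 and at 8.92 FPKM in cKO 2. The value of cKO 2 was close to the controls. The log2 fold change of -0.52 ± 0.17 missed the threshold (limma adjusted p = 0.0505), and without cKO 1 it was -0.11 (adjusted p = 0.963). Tnr exceeded Tnc in all 4 libraries, by a ratio of 1.55 and 1.17 in control and 1.17 and 1.02 in cKO.

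Of the link proteins, Hapln2 fell. It measured 18.7 and 21.3 FPKM in controls 1 and 2, against 9.90 and 17.3 FPKM in cKO 1 and cKO 2 (chromosome 3, 87825672 to 87831433). The groups did not overlap, and cKO 2 lay nearer to control 1 than to cKO 1. Means of 20.0 ± 1.86 and 13.6 ± 5.26 FPKM (SD, n = 2 each) gave a log2 fold change of -0.57 ± 0.18 (SE, limma adjusted p = 0.0303), or 1.48-fold lower. This call rested on cKO 1, without which the value was -0.19 (adjusted p = 0.895), against -0.94 without cKO 2, and it was also lost without control 2 (-0.47, adjusted p = 0.0867) and under each of 3 other scalings (adjusted p from 0.131 to 0.171). Hapln4, the link protein known from inhibitory synapses and nets, was at 20.8 FPKM in each control and at 26.7 and 22.0 FPKM in cKO 1 and cKO 2. Its log2 fold change of 0.21 did not pass (95% interval -0.11 to 0.53, limma adjusted p = 0.445). Hapln1, the cartilage link protein and a key part of nets, was at 10.6 and 7.70 FPKM in control and 10.1 and 9.58 FPKM in cKO, which overlapped (limma adjusted p = 0.720). The 3 link proteins summed to 50.01 and 49.7 FPKM in the controls and to 46.7 and 48.9 FPKM in the cKO libraries. Within that sum Hapln2 held 37.3% and 42.8% in the controls, 21.2% in cKO 1 and 35.5% in cKO 2, and Hapln4 held 41.5% and 41.7% against 57.1% and 44.9%.

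Cspg5 had the highest fold change of the 10 genes and missed the threshold. It was at 53.7 and 60.8 FPKM in the controls, against 87.9 and 76.0 FPKM in cKO 1 and cKO 2 (chromosome 9, 110146287 to 110165080), with no overlap between the groups. Means of 57.3 ± 5.03 and 81.9 ± 8.40 FPKM (SD, n = 2 each) gave a log2 fold change of 0.51 ± 0.18 (95% interval 0.15 to 0.87, limma adjusted p = 0.0571). Both transcripts of the gene lay above the controls in both cKO libraries, the 3871-base row at 14.3 and 10.01 against 21.8 and 17.2 FPKM and the 3790-base row at 39.4 and 50.8 against 66.0 and 58.8 FPKM. Neuroglycan C is known from neurons, and 10 neuron markers summed to 2067 and 2021 FPKM in the controls and to 2963 and 2490 FPKM in cKO 1 and cKO 2. Of these markers 1 rose (Slc32a1, a transporter of inhibitory neurons, limma adjusted p = 0.0349, or 0.67 without cKO 1) and none fell, and Snap25, Nefm, Gad1 and Slc17a6 overlapped between the groups. On the log2 scale, medians in cKO 1 and cKO 2 relative to the control mean were 0.44 and 0.31 for neuron markers. They were 0.05 and 0.24 for oligodendrocyte precursor markers and -0.19 and 0.02 for astrocyte markers. The part of neurons or of any other cell type in the value of Cspg5 was not tested.

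**Figure D3:**
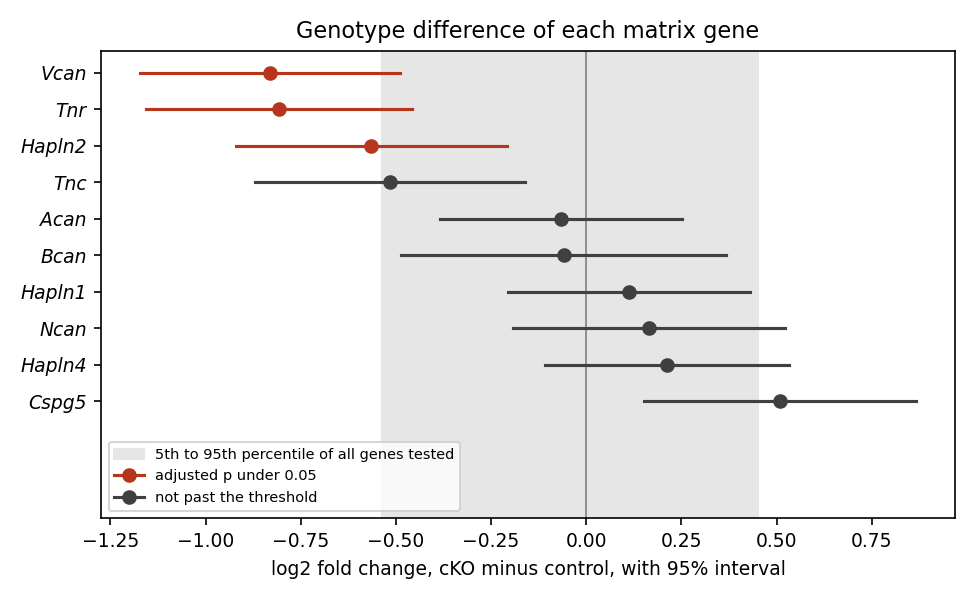
Log2 fold change of each gene sum, cKO minus control, with its 95% interval from limma, and the span from the 5th to the 95th percentile of all 12913 genes as a grey band (-0.54 to 0.45). Vcan, Tnr and Hapln2 (red) lie below the band, and Cspg5 at 0.51 lies above it without passing the adjusted threshold.

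Fitted as 14 separate transcripts of at least 1 FPKM rather than as sums, none of the genes passed in limma, where 0.118% of all 15236 transcripts did. At an unadjusted p under 0.05 there were 3 such transcripts, those of Tnr and the pair of Cspg5. The share of all transcripts at that unadjusted threshold was not computed. The spread in the transcript fit had 3.82 prior degrees of freedom, against 36.3 for the sums, so it was pooled over genes less strongly. With no filter on low values, or with rows of every length in the sums, none of the 10 gene sums passed either. For Vcan, Tnr and Hapln2 the spread between their own libraries (SD of 0.34, 0.38 and 0.39 on the log2 scale) exceeded the pooled SD behind the gene-sum test (0.17, 0.17 and 0.18).

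The cKO libraries differed from each other in these genes. Of the 10, 8 lay farther from the control mean in cKO 1 than in cKO 2. Among these, Bcan (-0.09 and -0.03) and Hapln1 (0.15 and 0.07) lay near the control mean in both. The share of all genes with this order was not computed, so the count does not set these genes apart. Vcan was at -1.17 in cKO 1 and -0.49 in cKO 2 on the log2 scale relative to the control mean, Tnr at -1.13 and -0.49, Hapln2 at -0.94 and -0.19, and Tnc at -0.92 and -0.11. Myelinating oligodendrocyte markers had the same order, with a median of -1.47 in cKO 1 and -0.92 in cKO 2, and 9 of 10 fell. Newly formed oligodendrocyte markers were at -1.16 and -0.67, and all 6 fell. Of 6 precursor markers none fell and 1 rose, with medians of 0.05 and 0.24, and their summed level was 126 and 141 FPKM in control and 137 and 152 FPKM in cKO. Astrocyte markers had medians of -0.19 and 0.02, and 1 of 8 rose. Of 4 Schwann cell markers tested, 3 fell and none rose, with medians of -1.27 and -1.19. Schwann cell markers summed to 117 and 35.4 FPKM in controls 1 and 2, against 22.4 and 23.6 FPKM in cKO 1 and cKO 2. Of 6 microglia markers, 3 fell and none rose, with medians of -0.33 and -0.51. None of 5 endothelial markers passed. In whole cord, fewer cells of a type and less RNA per cell cannot be told apart, and the part of each cell type in the lower matrix transcripts was not tested.

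**Figure D4:**
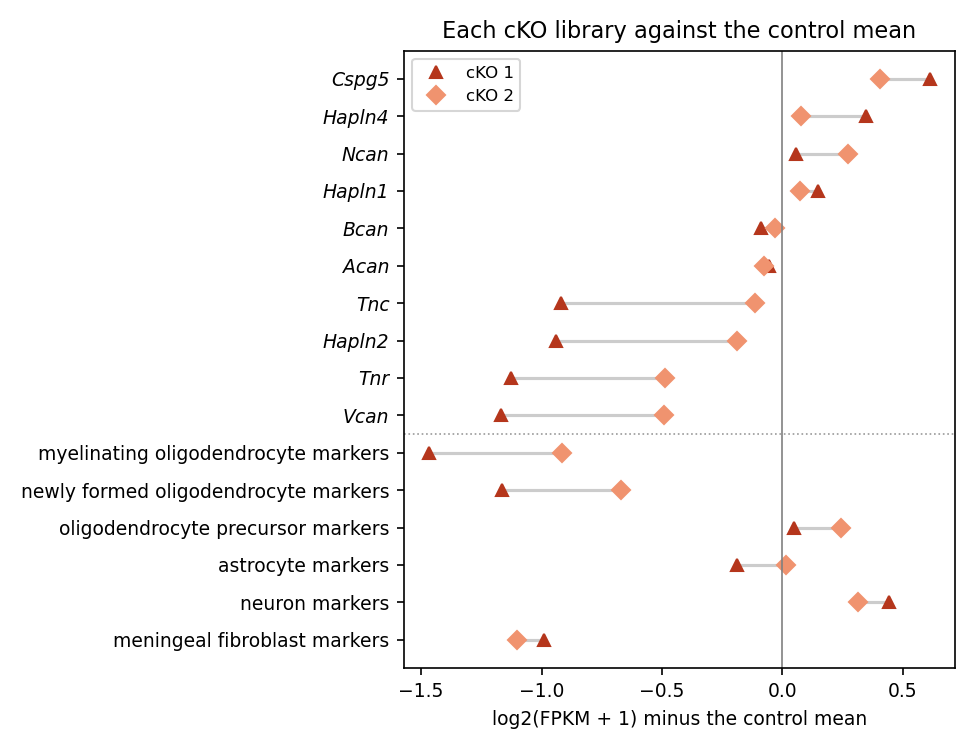
Difference of each cKO library from the control mean, on the log2(FPKM + 1) scale, for the 10 matrix genes (top) and as the median of 6 marker lists (below the dotted line), with 1 point for cKO 1 and 1 for cKO 2. Vcan, Tnr, Hapln2 and Tnc lie farther to the left in cKO 1, as the markers of myelinating and newly formed oligodendrocytes do, while precursor markers lie at 0.05 and 0.24.

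Each lectican gene sits beside a link protein gene, an arrangement the choice of genes did not use. On mm9 the gap was 43477 bases between Vcan and Hapln1, 21393 bases between Bcan and Hapln2, 2222 bases between Ncan and Hapln4, and 1927 bases between Acan and Hapln3, with no other listed gene in any gap. Hapln3, which is outside the 10 genes, was at 1.37 and 1.11 FPKM in control and 1.58 and 1.33 FPKM in cKO (limma adjusted p = 0.663). Neighbours did not share a call: Vcan fell by 0.83 beside Hapln1 at 0.11, and Hapln2 fell by 0.57 beside Bcan at -0.06. The Vcan to Hapln1 ratio was 1.48 and 2.02 in the controls and 0.629 and 1.13 in cKO 1 and cKO 2. The Bcan to Hapln2 ratio was 9.71 and 11.0 in control and 19.5 and 11.6 in cKO, so the shift lay mostly in cKO 1. Ncan and Hapln4, at 0.16 and 0.21, and Acan and Hapln3, at -0.07 and 0.13, did not pass. Differences between neighbours were not tested.

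The start regions of Vcan, Tnr and Hapln2 are shown because these are the genes that fell and because the study concerns Sox10, a factor whose family binds short AT-rich elements. They are RefSeq windows of 300 bases on GRCm38.p6, from 250 bases before the start site to 50 after it, written 5′ to 3′ on the strand of the gene, and their coordinates are not those of the deposited mm9 tables. Capitals mark matches, on either strand, to the Sox-type elements ACAAT and ACAAAG, the E-boxes CAGCTG and CATCTG, or TATAAA. The windows lie at chr13:89742463-89742762 (minus strand) for Vcan, chr1:159523519-159523818 (plus) for Tnr and chr3:88027462-88027761 (minus) for Hapln2.
Vcan: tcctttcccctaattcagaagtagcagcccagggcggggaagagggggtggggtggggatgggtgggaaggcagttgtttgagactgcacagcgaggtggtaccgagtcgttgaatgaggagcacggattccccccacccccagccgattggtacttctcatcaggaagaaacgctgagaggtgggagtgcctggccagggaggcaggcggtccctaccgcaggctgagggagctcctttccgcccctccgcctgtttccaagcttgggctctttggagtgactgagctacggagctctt
Tnr: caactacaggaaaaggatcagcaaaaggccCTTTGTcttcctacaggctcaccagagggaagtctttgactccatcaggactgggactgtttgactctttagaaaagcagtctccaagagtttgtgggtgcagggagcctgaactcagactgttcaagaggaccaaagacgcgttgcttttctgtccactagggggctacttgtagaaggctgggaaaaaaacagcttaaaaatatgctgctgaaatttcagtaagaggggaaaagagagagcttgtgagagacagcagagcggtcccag
Hapln2: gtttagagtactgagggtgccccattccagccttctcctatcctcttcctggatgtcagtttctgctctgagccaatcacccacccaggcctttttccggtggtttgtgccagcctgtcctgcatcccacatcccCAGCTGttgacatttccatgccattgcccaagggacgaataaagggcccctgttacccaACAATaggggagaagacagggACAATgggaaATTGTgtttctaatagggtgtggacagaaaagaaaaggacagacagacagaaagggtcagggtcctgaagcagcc
The Hapln2 window holds ACAAT at -56 and -35 and its reverse complement at -25 relative to the start site, and CAGCTG at -115, none overlapping. The Tnr window holds the reverse complement of ACAAAG at -220, and the Vcan window holds none of these letters. Of 32851 windows of all genes, 31.0% hold ACAAT, 18.7% ACAAAG, 16.3% CAGCTG, 17.2% CATCTG and 13.6% TATAAA. Windows were found for 8 of the 10 genes, not for Hapln4 and Cspg5, and ACAAT was in those of Hapln1, Hapln2 and Tnc. GC content was 61.0% for Vcan, 48.0% for Tnr and 52.0% for Hapln2, beside a median of 52.7% over all windows. A match of letters is a description and does not show binding.

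Other genes of the same matrix, listed as hyaluronan genes, chain-building enzymes, proteases, receptors and further proteoglycans, were read from the same fit. Of 103 tested, 12 fell and 7 rose, with a median of 0.05, beside the shares of 6.54% and 4.13% over all genes. Among 16 proteases that cut lecticans and their inhibitors, 2 fell and none rose. Adamts4, an aggrecanase that cuts brevican and versican and is made by oligodendrocytes, went from 47.4 and 49.7 FPKM in the controls to 12.6 and 19.1 FPKM in cKO 1 and cKO 2 (log2 fold change -1.58 with an SE of 0.17, limma adjusted p = 1.73e-08), a difference that also held without cKO 1. Adamts9 went from 3.91 ± 0.00859 to 2.52 ± 0.303 FPKM (SD, n = 2 each; limma adjusted p = 0.0336). Its log2 fold change was -0.39 without cKO 1, -0.57 without cKO 2 and -0.48 without control 1. The call was lost in each of these fits. Under each of 3 other scalings Adamts9 did not pass (limma adjusted p from 0.0695 to 0.113). No member of the other proteases or of the Timp inhibitors passed.

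Of 20 enzymes that build and sulfate chondroitin chains, 2 fell and 1 rose. The sulfotransferases Chst3, which acts on chondroitin, and Ust, which acts on uronic acid, fell by 0.71 and 0.62 on the log2 scale, Chst3 from 3.86 ± 0.296 to 1.995 ± 0.538 FPKM and Ust from 12.3 ± 0.207 to 7.66 ± 0.273 FPKM (SD, n = 2 each). Chpf, a chain polymerization factor, rose from 21.5 ± 2.93 to 34.9 ± 5.08 FPKM (limma adjusted p = 0.00502). Its log2 fold change of 0.67 ran from 0.52 without cKO 1 to 0.81 without cKO 2. The call was lost without cKO 1 and also without control 1 (0.54). Of 11 hyaluronan genes, Tmem2, a cell surface hyaluronidase, and Cd44, the hyaluronan receptor, fell, by 0.68 and 0.63. Without cKO 1 neither passed, at -0.46 and -0.26 (adjusted p = 0.307 and 0.777). Without control 1, Tmem2 was at -0.45 (adjusted p = 0.0966). Cd44 was at -0.99 without cKO 2, and under each of 3 other scalings it did not pass. The synthases Has1 and Has2 were under 1 FPKM in all 4 libraries and were not tested.

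Of 22 receptors and partners, 2 fell and 3 rose. Nfasc, the neurofascin of nodes and paranodes, went from 133 and 122 FPKM in the controls to 52.9 and 87.6 FPKM in cKO 1 and cKO 2 (log2 fold change -0.89 with an SE of 0.20, limma adjusted p = 0.0021), and the integrin Itgb3 fell by 0.53. Without cKO 1 neither passed, at -0.53 and -0.32 (adjusted p = 0.26 and 0.694). Rtn4r, the Nogo receptor, L1cam and the pentraxin Nptx2 rose by 0.59, 0.56 and 0.53. L1cam was at 0.49 without control 2 and 0.48 without cKO 1, and its call was lost in both fits. Nptx2 was at 0.52 without control 1 and 0.41 without cKO 1, where its call was lost too. Under TPM scaling Rtn4r and Nptx2 did not pass (limma adjusted p = 0.081 and 0.0581). Rtn4r was at 0.36 without control 1 and 0.38 without cKO 1 (adjusted p = 0.248 and 0.495). Cntn1 and Ptprz1, known binding partners of tenascin-R, had log2 fold changes of 0.13 each (limma adjusted p = 0.719 and 0.697). Among 34 further proteoglycans and glycoproteins, 4 fell and 3 rose. The heparan sulfate proteoglycans Gpc5, Sdc4 and Sdc3 rose by 0.63, 0.59 and 0.60, while Hspg2 (perlecan), of the same class, fell by 0.46 (limma adjusted p = 0.0466), a call lost on leaving out any 1 library. The other syndecans and glypicans tested and Agrn (agrin) did not pass. Without cKO 2 the fold change of Sdc4 was 0.39 and did not pass. Under TPM and quantile scaling Sdc4 did not pass either (limma adjusted p = 0.0959 and 0.107). Sdc3 ran from 0.53 to 0.67 on leaving out a library, and its call was lost without control 1, without control 2 and without cKO 1. With a term for replicate number in the fit, Sdc3 did not pass (limma adjusted p = 0.0973). Dcn and Ogn, small leucine-rich proteoglycans of fibrous tissue, fell by 0.996 and 0.98, with control 1 at 11.2 and 2.99 FPKM and control 2 at 3.66 and 0.532 FPKM. Without control 1, neither passed (adjusted p = 0.321 and 0.351). Fmod was at 7.73 and 7.58 FPKM in the controls, against 3.21 and 6.74 FPKM in cKO 1 and cKO 2, and without cKO 1 it did not pass (adjusted p = 0.922). In this family of 103 genes, 4 passed without cKO 1 (Adamts4, Dcn, Ogn and Sdc4) and 11 without control 1, instead of 19. None of the 103 passed with no filter or with rows of every length summed.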

How the data were processed

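Whole spinal cord RNA was sequenced in 4 libraries, grouped by the sample titles. The authors deposited FPKM per RefSeq transcript in the layout of Cufflinks, per the file headers. The submitters' processing notes list CASAVA, TopHat, Cufflinks and Cuffdiff with no versions, and the build mm9. The deposited coverage, a signal equal to the mean depth at each base, served for depth only, since read totals were not at hand.

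Tables of 28107 rows were matched by transcript, locus, symbol and length, and 315 rows with a status other than OK were left out. FPKM was summed per symbol over rows of at least 300 bases. The log2(FPKM + 1) values of sums averaging at least 1 FPKM were tested with limma 3.58.1 (R 4.3.3) with a mean-variance trend and Benjamini-Hochberg adjustment over all sums, at 0.05. The spread had 36.3 prior and 2 residual degrees of freedom. The fit was also run on simulated data, drawn from a normal distribution with the pooled SD of each gene. The pooling of the spread held there by design, so that run could not test it.

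The members, the gene lists and the tests were chosen with earlier results of these data known. Named genes were all members, Chd7, Hapln3, and up to 3 genes per direction of each matrix list with the smallest p, while other genes were named after their values were seen. Starts were raised by 1 to count from 1. Promoter windows came from RefSeq, matched by symbol for 8 members. Protein sequences were not used here.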

Additional observations from a re-analysis of the deposited data

How the results depend on the processing

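Of 10 matrix genes, 3 fell and none rose. The number that fell was 0 with no filter on low values, 0 with rows of every length summed, and 1 (Vcan) under TPM and under quantile scaling. Leaving out 1 library in turn gave 0 to 4, with 0 without cKO 1. The number that rose was 1 (Cspg5) without the mean-variance trend and with robust moderation, and 0 to 1 on leaving out a library. Among member transcripts, leaving out a library gave 0 to 1 calls, instead of 0. Of the further matrix genes, 19 passed, against 0 with no filter, 0 with rows of every length, 11 with median-of-ratios factors, 8 with TPM and 10 with quantile scaling, and 4 to 19 on leaving out a library. Over all genes, 845 fell and 533 rose, against 0 and 1 with no filter and 30 and 23 with rows of every length, settings in which the prior degrees of freedom were 0.858 and 4.15. The cause was not tested.

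Fold changes of members kept their sign under all alternatives, except 2 that did not pass: on leaving out a library, Bcan ran from -0.24 to 0.12 and Hapln1 from -0.10 to 0.32, with the change of sign without control 2. Chd7 ran from -0.29 to 0.023, above 0 without cKO 1. Of further genes that did not pass, Cntn1 ran from -0.045 to 0.31, below 0 without control 2, and Ptprz1 from -0.090 to 0.35, below 0 without control 2 (-0.04) and without cKO 2. Tnc passed under 6 alternatives, the crossed numbers below among them, with adjusted p-values from 0.000313 to 0.963 over all alternatives. The labels do not say that a replicate number marks a shared litter or day. With a replicate block, 3 members fell, none rose, no member transcript passed and 15 further matrix genes passed. Deviations of same-numbered libraries correlated at -0.24 across genes, and with the numbers crossed, chosen after seeing the data, 4 members fell and 1 rose. Depth was lowest in control 2, and Acan, the V0 form and the Vcan row of 3745 bases rest on few reads per base.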
